A study of Mus musculus with 12 samples.

Results

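Marker genes of bile duct cells were followed in mouse liver across 3 groups: untreated control mice, mice with diabetes induced by STZ, and STZ mice that also received MENS. The set held 7 genes of the 17742 measured, namely Krt19, Krt7, Tspan8, Anxa13, Epcam, Sox9 and Spp1. They were found by gene symbol in the platform annotation, which gave 8 of the 20377 named probes, and the brightest probe over all 12 arrays stood for each gene. Epcam alone had 2 probes. The set was selected on measured values: markers of bile duct cells had been seen to be higher in STZ liver than in control liver in these same samples, so the STZ minus control values of the members are given as a description, without a test.

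STZ is streptozotocin, a toxin of the insulin-producing beta cells of the pancreas. The labels leave the abbreviation MENS unexpanded. The treatment was applied through a printed circuit board for 1 h a day on 5 days a week over 6 weeks, per the labels' protocols. Every mouse is labelled as 8 weeks old, without a statement of whether that is the age at the start or at the end, and the labels name neither strain nor sex. Each group held 2 liver samples (n = 2 per group throughout), and every sample was hybridised to 2 arrays. The labels do not state that a sample is 1 animal, so the p-values below measure only the spread between these samples, which may be technical.

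Bile duct cells, or cholangiocytes, line the tubes that carry bile from the liver, and they change its composition by secreting and absorbing water, bicarbonate and chloride. They are a small minority of liver cells and stand out from hepatocytes by the keratins Krt7 and Krt19, surface glycoproteins and the transcription factor Sox9. In liver injury, cells with duct markers can multiply around the portal tracts, which is called a ductular reaction. In whole liver tissue, a larger number of such cells and more RNA per cell cannot be told apart, and hepatocytes make up most of the RNA. The hepatocyte marker Alb (albumin) lay between 471619 and 522631 intensity units in all 6 samples, as liver tissue would give.

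Array medians lay between 768.89 and 770.33 intensity units. With limma, 1 of the 17742 genes passed an adjusted p of 0.05 for STZ against control (0.00564%), 0 for STZ+MENS against STZ (0.00%) and 1 for STZ+MENS against control (0.00564%). At an unadjusted p under 0.05 there were 3012, 4509 and 3193 genes in the same order. The gene called against control was Top2b both times, no member of the set, with intensities of -7 and -11 on the first array of the control samples and 3338 to 5332 on the other arrays.

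The RefSeq promoter table (build GRCm38.p6) held 4 of the 7 members. Their promoters are shown because these members fall on different sides of the results: Tspan8 differed most steadily between arrays of the groups, while Krt7, Epcam and Spp1 showed small or uneven differences. Each sequence runs 5′ to 3′ on the gene's strand, from 250 bases before the start site to 50 bases after it, in lower case with motif matches in capitals. Six-letter or seven-letter cores of factors known in bile duct cells were searched on both strands: HNF1 (GTTAAT), TEAD (GGAATG), RBPJ (TGGGAA), SOX (ACAAAG), AP-1 (TGANTCA) and the TATA box (TATAAA).
Tspan8 (chr10:115817034-115817333, + strand): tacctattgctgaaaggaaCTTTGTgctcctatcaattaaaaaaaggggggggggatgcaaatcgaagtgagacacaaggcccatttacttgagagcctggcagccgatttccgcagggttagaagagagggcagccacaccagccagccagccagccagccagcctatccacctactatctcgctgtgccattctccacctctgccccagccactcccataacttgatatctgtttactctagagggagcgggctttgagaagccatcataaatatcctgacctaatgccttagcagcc
Spp1, upstream start (chr5:104434861-104435160, + strand): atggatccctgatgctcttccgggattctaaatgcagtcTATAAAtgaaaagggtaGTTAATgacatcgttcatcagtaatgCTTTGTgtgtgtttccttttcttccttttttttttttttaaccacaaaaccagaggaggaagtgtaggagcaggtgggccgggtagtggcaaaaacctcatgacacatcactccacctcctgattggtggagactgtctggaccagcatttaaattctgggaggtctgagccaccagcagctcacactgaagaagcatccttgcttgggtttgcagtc
Krt7 (chr15:101412153-101412452, + strand): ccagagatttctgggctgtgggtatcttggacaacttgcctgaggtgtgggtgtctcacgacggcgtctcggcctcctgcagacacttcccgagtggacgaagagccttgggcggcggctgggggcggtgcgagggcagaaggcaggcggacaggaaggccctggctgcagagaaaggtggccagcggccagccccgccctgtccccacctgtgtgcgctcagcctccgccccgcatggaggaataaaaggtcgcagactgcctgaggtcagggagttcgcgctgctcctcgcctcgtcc
Epcam (chr17:87635729-87636028, + strand): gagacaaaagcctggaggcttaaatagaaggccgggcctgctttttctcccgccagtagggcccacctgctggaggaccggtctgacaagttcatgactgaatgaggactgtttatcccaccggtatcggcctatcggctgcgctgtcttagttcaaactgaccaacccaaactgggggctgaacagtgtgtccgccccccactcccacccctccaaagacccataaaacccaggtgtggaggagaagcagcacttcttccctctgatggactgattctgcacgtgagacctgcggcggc

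In the Tspan8 promoter the capitals mark 1 SOX match, 231 bases before the start. In the Spp1 promoter they mark a TATA box match 211, an HNF1 match 194 and a SOX match 168 bases before the start. The other Spp1 start in the table (chr5:104435942-104436241, + strand) has 1 SOX match 243 bases before it and none of the other letters, with 36.7% G and C. None of the searched letters occurred in the Krt7 or Epcam window. Of all 32851 promoters in the table, 18.7% held the SOX letters, 13.6% the TATA box, 7.1% the HNF1, 14.7% the TEAD, 25.6% the RBPJ and 7.81% the AP-1 letters, so a single match is common. The windows differed in base composition: G and C made up 66.3% of the Krt7 window with 21 CpG pairs and 57.0% of the Epcam window with 11. The Tspan8 window had 51.7% with 5 CpG pairs and the Spp1 window 45.3% with 3, against medians of 52.7% and 7 over all promoters.

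All 7 members had a higher mean in STZ liver than in control liver, by 3.22-fold for Anxa13, 2.77-fold for Tspan8 and 2.37-fold for Krt19 and by 1.28-fold or less for Krt7, Spp1, Epcam (brighter probe) and Sox9. For Anxa13, Tspan8 and Krt19 both STZ+MENS samples lay below both STZ samples, as in 23.9% of all genes, and above both control samples, as in 25.6% of all genes. These 3 are named here because they were the highest in STZ, so a lower place in another group is a description only. No member passed the adjusted threshold in the comparisons of STZ+MENS, and those comparisons share samples with the one the set was selected on.

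**Figure D1:**
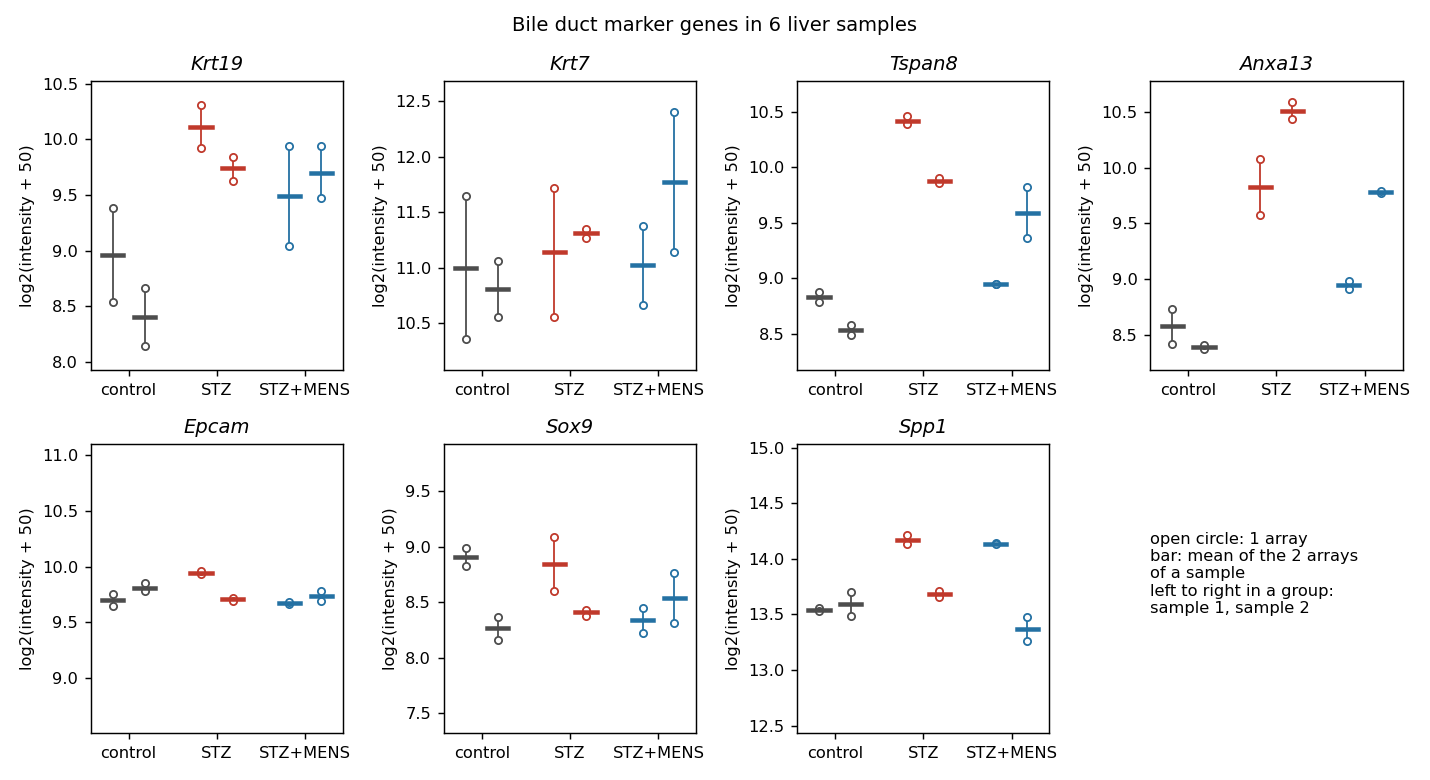
Level of each marker gene (vertical axis, log2 of intensity plus 50) in the 2 samples of each group; open circles are single arrays and bars the mean of the 2 arrays of a sample. The axes start at different values. Krt19, Tspan8 and Anxa13 show the 2 control samples at the bottom and the 2 STZ samples at the top, while Epcam is nearly flat and Krt7 arrays of 1 sample lie far apart.

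The keratins are the intermediate filament proteins by which bile ducts are usually stained. Krt19, a keratin that hepatocytes lack, had mean intensities of 469 and 293 in the control samples, 1068 and 806 in STZ and 703 and 794 in STZ+MENS. By sample means both control samples were the lowest, both STZ samples the highest, and no sample of 1 group overlapped another group. The margin was narrow between STZ sample 2 (806) and STZ+MENS sample 2 (794). On single arrays, the 4 STZ values (743 to 1215) also lay above the 4 control values (232 to 615). Of the STZ+MENS arrays, 1 (476) fell within the control range, and those at 930 and 929 fell within the STZ range. Arrays of a sample agreed poorly, with an SD of 0.427 log2 units, more than in 92.2% of all genes.

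On the log2(intensity + 50) scale Krt19 had group means of 8.68 ± 0.40 for control, 9.93 ± 0.27 for STZ and 9.59 ± 0.15 for STZ+MENS (SD, n = 2). The STZ minus control difference was 1.25 ± 0.24 (standard error). STZ+MENS was 0.92 ± 0.24 above control (95% interval 0.34 to 1.49, 1.89-fold, limma adjusted p = 0.149 over all genes). It differed from STZ by -0.33 ± 0.24, with an interval of -0.91 to 0.25 and an adjusted p of 0.428 by limma. The first arrays alone gave -0.59 for this difference and the second arrays alone -0.07. For STZ+MENS minus control they gave 0.47 and 1.36.

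Krt7, the usual partner keratin of Krt19 in ducts, read 2214 and 1766 in control, 2389 and 2495 in STZ and 2100 and 3772 in STZ+MENS. Both STZ samples exceeded both control samples by a small margin, and the STZ+MENS samples lay on either side of the STZ samples. Its arrays agreed poorly within a sample. Control sample 1 read 1264 on its first array and 3164 on its second, and STZ+MENS sample 2 read 5338 and 2206.

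The SD between arrays of a sample was 0.667 log2 units for Krt7, more than in 96.6% of all genes, whose median was 0.136. The Krt7 differences were 0.32 ± 0.26 for STZ minus control, 0.17 ± 0.26 for STZ+MENS minus STZ (interval -0.46 to 0.80, limma adjusted p = 0.718) and 0.49 ± 0.26 for STZ+MENS minus control (interval -0.13 to 1.12, limma adjusted p = 0.373). Read from the second arrays alone, STZ+MENS was 0.59 below STZ and 0.20 below control, the opposite direction, and without STZ+MENS sample 2 the difference from STZ was -0.20. No direction can therefore be given for Krt7 in the comparisons of STZ+MENS. STZ minus control stayed between 0.22 and 0.42 in all 16 alternatives, but these reuse the samples on which the set was selected. Several of them, such as the fit with only the groups compared, could not change this estimate. That range is a description only, and single arrays of control (1264 to 3164) and STZ (1465 to 3314) overlapped.

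Tspan8, a tetraspanin that organises adhesion proteins at the surface of secretory epithelia, read 406 and 321 in control, 1323 and 894 in STZ and 444 and 731 in STZ+MENS. All 4 STZ arrays (881 to 1355) lay above all 4 STZ+MENS arrays (443 to 855), which in turn lay above all 4 control arrays (309 to 420). Arrays of a sample differed by at most 0.09 log2 units except in STZ+MENS sample 2, where the gap was 0.46. The STZ+MENS samples were unlike each other, with sample 1 near control and sample 2 near STZ sample 2.

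Tspan8 had group means of 8.68 ± 0.21 for control, 10.15 ± 0.38 for STZ and 9.27 ± 0.45 for STZ+MENS (log2 scale, SD, n = 2). STZ exceeded control by 1.47 ± 0.28. STZ+MENS was below STZ by 0.88 ± 0.28 in size, a 1.84-fold difference (interval -1.57 to -0.20), with an adjusted p of 0.129 by limma. It passed the threshold only when limma fitted all arrays with the sample as a random block (adjusted p = 0.0251). That fit called 3079 of the 17742 genes in this comparison, so the call is not particular to Tspan8. Over the alternatives that kept both samples of each group compared, the limma adjusted p ran from 0.0251 to 0.247. The difference was -0.56 when STZ+MENS sample 1 was left out and -1.20 when sample 2 was. STZ+MENS minus control was 0.59 ± 0.28 (interval -0.10 to 1.27, limma adjusted p = 0.339), and 0.27 when STZ+MENS sample 2 was left out.

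Anxa13, an annexin that binds membrane lipids in a calcium-dependent manner and is made mainly by epithelial cells, showed the widest range of the 7 on the log2 scale. It read 334 and 286 in control, 874 and 1415 in STZ and 444 and 828 in STZ+MENS. The control samples were close together and lowest, and here STZ sample 2, not sample 1, was the highest. All 4 STZ+MENS arrays (432 to 833) exceeded all 4 control arrays (282 to 375), but 1 STZ array (715) lay within the STZ+MENS range.

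Anxa13 had group means of 8.48 ± 0.13 for control, 10.17 ± 0.48 for STZ and 9.36 ± 0.59 for STZ+MENS (log2 scale, SD, n = 2). The STZ minus control difference was 1.69 ± 0.34. STZ+MENS minus STZ was -0.81 ± 0.34 (interval -1.62 to 0.01, limma adjusted p = 0.200), and STZ+MENS minus control was 0.88 ± 0.34 (interval 0.06 to 1.69, limma adjusted p = 0.25). As for Tspan8, STZ+MENS sample 1 lay near control and sample 2 nearer to STZ. The size of the difference from STZ rested on single samples: it was -0.39 without STZ+MENS sample 1, -0.47 without STZ sample 2, -1.15 without STZ sample 1 and -1.22 without STZ+MENS sample 2. The difference from control was 0.46 without STZ+MENS sample 2.

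Epcam encodes an adhesion molecule of simple epithelia that marks ducts and liver progenitor cells but not mature hepatocytes. Its brighter probe (PH_mM_0009383) read 785 and 850 in control, 936 and 785 in STZ and 764 and 803 in STZ+MENS, so the groups overlapped. This was a precise reading, since the SD between arrays was 0.0475, smaller than in all but 2.01% of genes. The differences were 0.07 ± 0.15 for STZ minus control, -0.12 ± 0.15 for STZ+MENS minus STZ (interval -0.49 to 0.24, limma adjusted p = 0.648) and -0.06 ± 0.15 for STZ+MENS minus control (interval -0.42 to 0.31, limma adjusted p = 0.882). The small STZ minus control value turned to -0.05 without STZ sample 1.

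The dimmer Epcam probe (PH_mM_0014145) gave another picture. It read 387 and 246 in control, 555 and 537 in STZ and 565 and 643 in STZ+MENS. All control arrays (246 to 405) were below all STZ arrays (524 to 586) and all STZ+MENS arrays (485 to 802), whereas the arrays of STZ and STZ+MENS overlapped. By this probe STZ exceeded control by 0.73 ± 0.21, and STZ+MENS exceeded control by 0.84 ± 0.21 (interval 0.33 to 1.35, limma adjusted p = 0.139). STZ+MENS minus STZ was 0.11 ± 0.21 (interval -0.40 to 0.62, limma adjusted p = 0.778). The 2 probes of Epcam thus disagreed on whether STZ liver differed from control, and which of them follows the Epcam transcript was not tested.

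**Figure D2:**
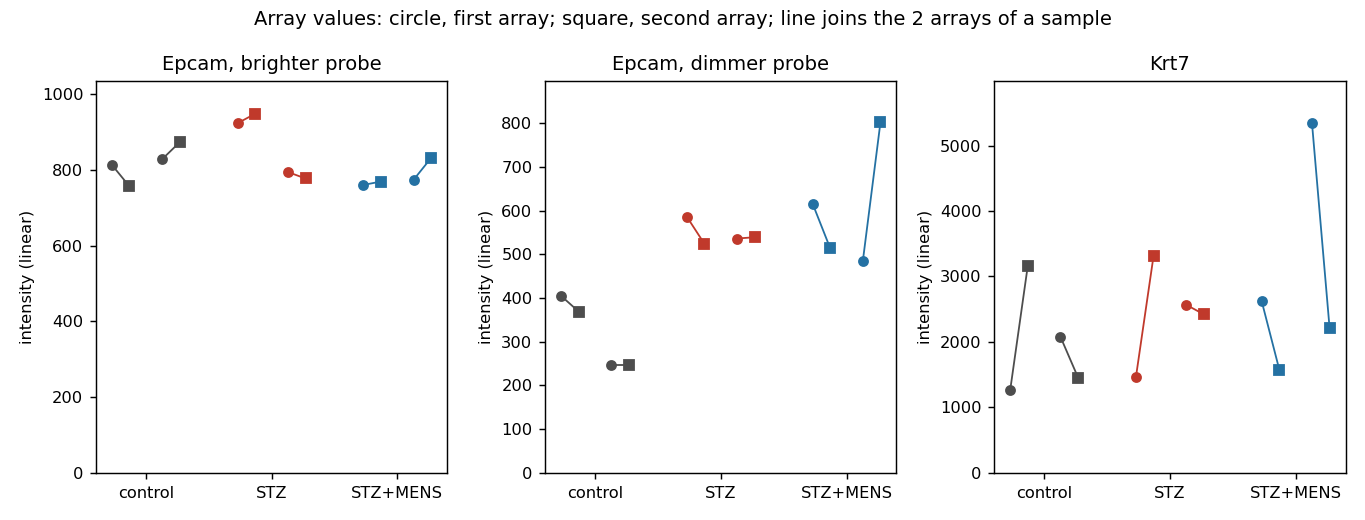
Intensity on each array (vertical axis, linear, from 0) for the brighter and the dimmer Epcam probe and for Krt7; circles are first arrays, squares second arrays, and lines join the 2 arrays of a sample. The brighter Epcam probe stays between 756 and 948, the dimmer one is at or below 405 only in control, and Krt7 spans 1264 to 5338 with wide gaps between arrays of 1 sample.

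Sox9, the transcription factor that specifies bile duct cells in the embryo and is kept in adult ducts, read 433 and 259 in control, 416 and 289 in STZ and 274 and 326 in STZ+MENS. Each group held a sample near the top and a sample near the bottom, or lay within the range of the others. The STZ minus control difference was 0.03 ± 0.26. STZ+MENS differed from STZ by -0.19 ± 0.26 (interval -0.83 to 0.45, limma adjusted p = 0.692) and from control by -0.15 ± 0.26 (interval -0.79 to 0.48, limma adjusted p = 0.812). None of these directions held: leaving out control sample 2 turned STZ minus control to -0.29, and leaving out STZ sample 1 turned it to -0.18. STZ+MENS minus STZ turned to 0.03 when STZ sample 1 was left out, and STZ+MENS minus control to 0.17 when control sample 1 was.

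Spp1 encodes osteopontin, a secreted phosphoprotein that duct cells release and that binds integrins and Cd44 on neighbouring cells. It read 11901 and 12320 in control, 18362 and 13093 in STZ and 17928 and 10571 in STZ+MENS. The control samples nearly coincided. Sample 1 of STZ and sample 1 of STZ+MENS were both high, sample 2 of STZ lay just above control, and sample 2 of STZ+MENS was the lowest of all. Arrays of a sample agreed closely (SD 0.0918 on the log2 scale, against 0.370 between samples of a group), so the spread lay between samples and not between arrays.

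The Spp1 differences were 0.36 ± 0.29 for STZ minus control, -0.17 ± 0.29 for STZ+MENS minus STZ (interval -0.87 to 0.53, limma adjusted p = 0.745) and 0.18 ± 0.29 for STZ+MENS minus control (interval -0.51 to 0.88, limma adjusted p = 0.791). Leaving out STZ sample 1 turned the difference from STZ to 0.07, and leaving out STZ+MENS sample 2 turned it to 0.21. The difference from control turned to -0.20 when STZ+MENS sample 1 was left out.

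**Figure D3:**
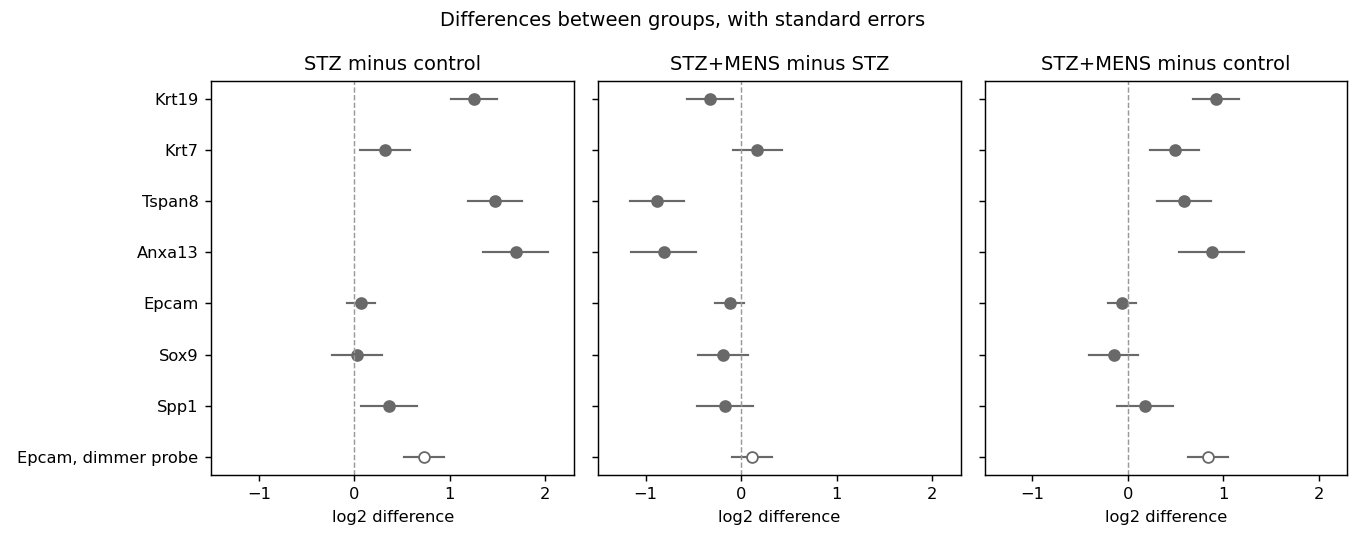
Difference between groups for each marker gene (horizontal axis, log2 difference; points are estimates, lines ± 1 standard error) in the 3 comparisons; the open point is the dimmer Epcam probe. Anxa13 (1.69), Tspan8 (1.47) and Krt19 (1.25) lie farthest right for STZ minus control, and Tspan8 (-0.88) and Anxa13 (-0.81) farthest left for STZ+MENS minus STZ.

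Counted together for STZ against control, 5 members had both STZ samples above both control samples (Krt19, Krt7, Tspan8, Anxa13 and Spp1), a pattern shown by 24.0% of all genes, and 0 members had both below, a pattern of 28.2% of genes. All 4 STZ arrays exceeded all 4 control arrays for 3 members (Krt19, Tspan8 and Anxa13), against 14.1% of all genes. The median member difference was 0.36, beside -0.02 over all genes. These counts describe the contrast on which the set was selected, and nothing is read from them.

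For STZ+MENS against STZ, both STZ+MENS samples were below both STZ samples for 3 of 7 members (Krt19, Tspan8 and Anxa13), beside 23.9% of all genes, and above for 0 of 7, beside 34.0%. All 4 arrays were lower for 1 member, Tspan8, beside 12.9% of all genes. The median difference was -0.19 for the members and 0.06 for all genes. By limma 0 members passed the adjusted threshold and 1, Tspan8, had an unadjusted p under 0.05, which 25.4% of all genes had. With a set of 7, these counts are a description and not a result about the set.

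For STZ+MENS against control, both STZ+MENS samples were higher for 4 of 7 members (Krt19, Krt7, Tspan8 and Anxa13), beside 25.6% of all genes, and lower for 0 of 7, beside 23.0%. All 4 arrays were higher for 2 members (Tspan8 and Anxa13), beside 11.6% of all genes. The median was 0.49, against 0.02 over all genes. By limma 0 members passed the adjusted threshold and 2 (Krt19 and Anxa13) had an unadjusted p under 0.05, which 18.0% of all genes had. Since the control samples are those on which the set was selected, this comparison is no independent evidence of a direction.

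The members also differed between samples of the same group. With each member centred on its mean over the 6 samples, the average of the 7 was -0.26 and -0.51 in the control samples, 0.45 and 0.27 in STZ and -0.11 and 0.16 in STZ+MENS. Control sample 2 was the lowest sample for Krt19, Krt7, Tspan8, Anxa13 and Sox9. STZ sample 1 was the highest for Krt19, Tspan8, Epcam and Spp1. The SD between samples of a group ran from 0.111 for Epcam to 0.445 for Anxa13, with a median of 0.173 over all genes, so every member but Epcam varied more between samples than the median gene.

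Profiles were compared with those of 6346 genes with a mean intensity of at least 100 and an SD of at least 0.3 over the 6 samples. Symbols of predicted genes, clones and pseudogenes, and those all in capitals, were skipped in the ranking. Of the other genes, the profiles most like that of Krt19 were those of Mpzl1, a membrane glycoprotein (r = 0.986), and Slc45a1, a sugar transporter (0.981). Next came the Notch ligand Dll1 (0.980), the endothelial protein Vwf (0.977) and the sulfotransferase Chst13 (0.977). These are Pearson correlations over n = 6 samples that share their group structure, given as a description. Against the mean of the members the nearest were Tm2d3 (0.992), Krt8 (0.992), the purine enzyme Xdh (0.985), Gap43 (0.981) and Vwf (0.981). Krt8, the type II keratin of both hepatocytes and ducts, stood at 15.93 and 15.63 in control, 16.44 and 16.37 in STZ and 15.97 and 16.26 in STZ+MENS on the log2 scale. Its order of samples was therefore the order of the set, with control sample 2 lowest and STZ sample 1 highest.

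Genes of related function were read beside the members, and no member of any list below passed limma's adjusted threshold in any of the 3 comparisons. Counts of higher and lower genes below are of genes whose sample values did not overlap between the groups, which for STZ against control was so for 24.0% (higher) and 28.2% (lower) of all genes, and for STZ+MENS against STZ for 34.0% and 23.9%. Of 15 measured genes of keratins and epithelial junctions, 3 were higher and 3 lower in both STZ samples than in both control samples (24.0% and 28.2% of all genes; median difference 0.02). The keratin Krt23 stood apart, with 10.64 and 10.63 in control, 13.67 and 13.68 in STZ and 11.22 and 12.75 in STZ+MENS. Its STZ+MENS samples lay between the other groups, as for Krt19, Tspan8 and Anxa13, at -1.69 ± 0.45 from STZ (limma adjusted p = 0.0972). The tight junction gene Cldn3 ran the other way, at -0.69 ± 0.15 for STZ minus control and 0.86 ± 0.15 for STZ+MENS minus STZ (limma adjusted p = 0.0595). The keratin Krt18 was not higher in STZ, at -0.28 ± 0.19 for STZ minus control. It was at -0.70 ± 0.19 for STZ+MENS minus STZ and -0.99 ± 0.19 for STZ+MENS minus control. Its probe was dim, at log2 values of 7.92 and 7.81 in control, 7.4 and 7.76 in STZ and 6.73 and 7.03 in STZ+MENS. Krt8 stood between 15.63 and 16.44 in the same samples, and whether the Krt18 probe follows its transcript was not tested.

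The regulators of bile duct fate went both ways. Of 10 measured biliary transcription factors and Notch genes, 2 were higher and 3 lower in both STZ samples than in control (24.0% and 28.2% of all genes), with a median of -0.08. Hes1, a Notch target, read 12.56 and 12.76 in control, 13.08 and 13.28 in STZ and 12.60 and 12.47 in STZ+MENS. Both STZ samples lay above all others, at 0.52 ± 0.16 from control, and STZ+MENS was -0.64 ± 0.16 from STZ (limma adjusted p = 0.0837). Rbpj, the DNA-binding partner of Notch, was at -0.40 ± 0.26 for STZ minus control. Of the 11 SOX factors measured, 3 were higher and 5 lower in STZ (median -0.04), from -0.57 ± 0.22 for Sox10 to 0.60 ± 0.20 for Sox7, beside 0.03 for Sox9.

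Of 14 genes of progenitor cells and the ductular reaction, 7 were higher and 2 lower in both STZ samples than in both control samples (24.0% and 28.2% of all genes), with a median of 0.33. In STZ+MENS 2 were higher and 4 lower than in STZ (34.0% and 23.9% of all genes), with a median of -0.37. Tnfrsf12a, the receptor of the cytokine Tweak, read 11.87 and 11.11 in control, 12.80 and 11.92 in STZ and 10.18 and 10.83 in STZ+MENS, the lowest group. Muc1, an epithelial mucin, was 0.73 ± 0.18 higher in STZ and 0.75 ± 0.18 higher in STZ+MENS than in control (limma adjusted p = 0.132 for the latter). Prom1 (prominin 1) was high in 1 sample only, at 12.47 in STZ sample 1 and 10.32 to 11.09 elsewhere.

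Among 12 Hippo pathway genes, a pathway that controls duct cell number through the Yap coactivator, 5 were higher and 2 lower in both STZ samples (24.0% and 28.2% of all genes; median 0.20). In STZ+MENS 2 were higher and 8 lower than in STZ (34.0% and 23.9% of all genes; median -0.48). The kinase Lats1 was -0.99 ± 0.16 and the transcription factor Tead3 0.89 ± 0.16 in STZ+MENS minus STZ (limma adjusted p = 0.0595 and 0.0604). Of 11 secretion and transport genes of ducts, 3 were higher and 2 lower in STZ (median 0.10). The exporter Abcc3 was 0.83 ± 0.24 above control, and the bicarbonate exchanger Slc4a2 was 0.73 ± 0.21 higher in STZ+MENS than in STZ (limma adjusted p = 0.107). Of 9 genes of the primary cilium, the sensory organelle of duct cells, 6 were higher and 1 lower in STZ (24.0% and 28.2% of all genes; median 0.15).

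The relatives of the members did not share 1 direction. Of 10 other annexins, 5 were higher and 1 lower in both STZ samples (24.0% and 28.2% of all genes; median 0.29). Anxa3 read 8.20 and 7.75 in control, 9.49 and 8.90 in STZ and 7.87 and 8.29 in STZ+MENS, so STZ+MENS overlapped control. Anxa7 and Anxa6 were not lower in STZ+MENS than in STZ. Anxa7 was at 0.70 ± 0.15 for STZ minus control and 0.21 ± 0.15 for STZ+MENS minus STZ, and Anxa6 at 0.13 ± 0.19 and 0.46 ± 0.19. Of 19 other tetraspanins, 4 were higher and 7 lower in STZ (median -0.05), and 4 were higher and 9 lower in STZ+MENS than in STZ (34.0% and 23.9% of all genes; median -0.20). Of 9 integrin and Cd44 receptors of osteopontin, 1 was higher and 3 lower in STZ (median -0.12), and 5 were higher and 2 lower in STZ+MENS than in STZ (median 0.28). At an unadjusted p under 0.05 by limma, STZ+MENS against STZ gave 4 higher and 0 lower of the osteopontin receptors, 2 and 6 of the tetraspanins, 1 and 5 of the Hippo genes and 1 and 2 of the ductular reaction genes, beside 25.4% of all genes in either direction.

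**Figure D4:**
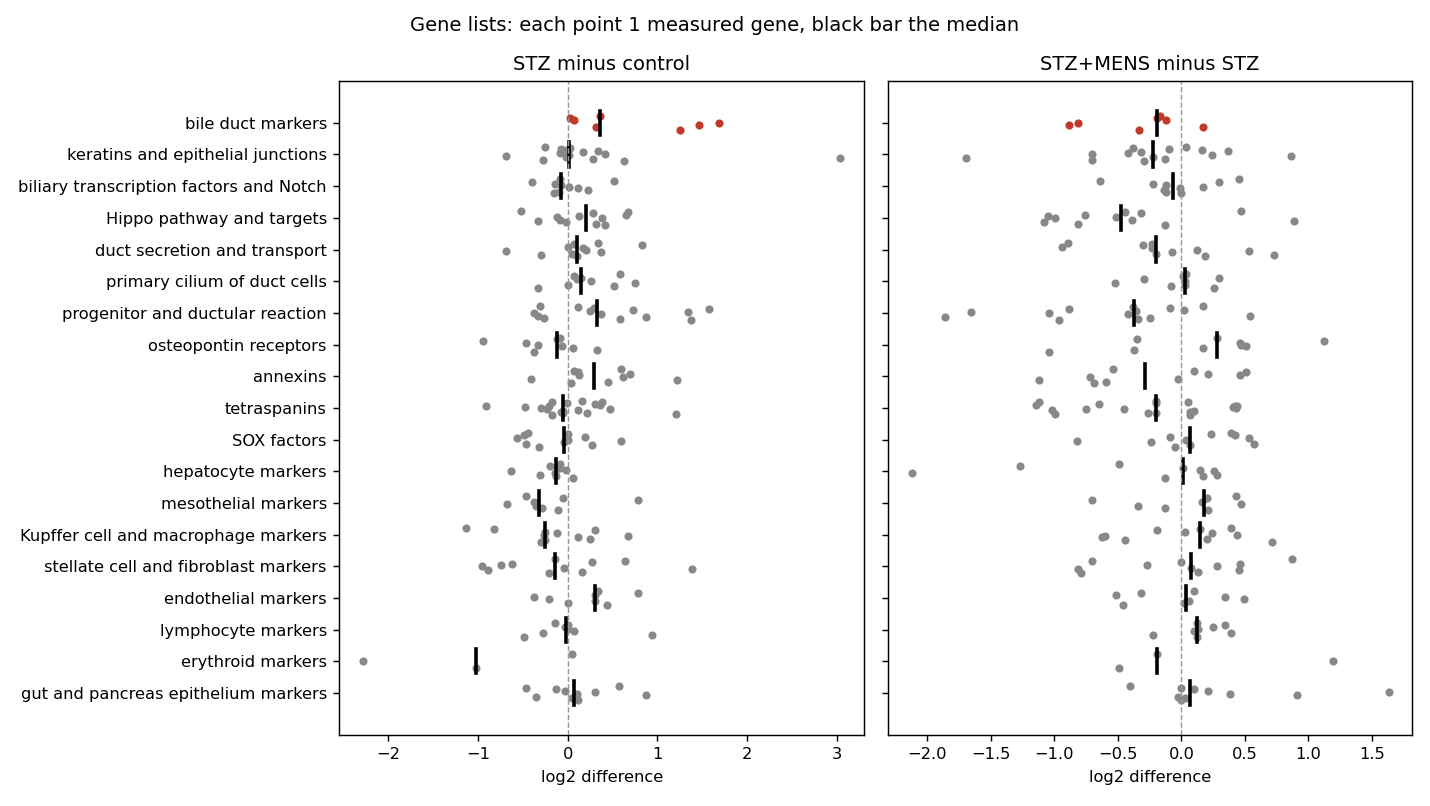
Log2 difference of every measured gene (points; horizontal axis) in the marker and related gene lists, for STZ minus control and STZ+MENS minus STZ; black bars are list medians and red points the bile duct markers. The red median is 0.36 on the left and -0.19 on the right, and the Hippo and ductular reaction medians are the lowest on the right, at -0.48 and -0.37.

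Markers of other cell types were read in the same samples, since mesothelium and the epithelia of gut and pancreas also make simple keratins. The 8 mesothelial markers summed to 2459 and 2594 intensity units in control, 2738 and 1795 in STZ and 1883 and 2462 in STZ+MENS, with overlapping groups and a median STZ minus control difference of -0.32. The defining mesothelial genes Msln and Upk3b differed by -0.11 ± 0.21 and -0.29 ± 0.19. Gpm6a, another mesothelial marker, went the other way at 0.78 ± 0.22 for STZ minus control and -0.70 ± 0.22 for STZ+MENS minus STZ, the same signs as Tspan8 and Anxa13, and its part in their values was not tested. Of the 10 measured gut and pancreas markers, 3 were higher and 2 lower in STZ (median 0.07), Pnlip averaged under 50 intensity units over the 6 samples, and Vil1 differed by 0.12 ± 0.15. The gut lectin Lgals4 was 0.87 ± 0.24 above control in STZ and 1.79 ± 0.24 above control in STZ+MENS (limma adjusted p = 0.111 for the latter), so it did not share the intermediate place of Tspan8. Tff3, a trefoil peptide, was 0.31 ± 0.38 from control in STZ and 1.94 ± 0.38 in STZ+MENS (limma adjusted p = 0.125 for the latter).

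In the other cell type lists, as above, 24.0% of all genes were higher and 28.2% lower in both STZ samples than in both control samples. Endothelial markers were higher in STZ for 4 of 8 measured genes and lower for 2 (median 0.30), with Vwf at 0.78 ± 0.16, Pecam1 at 0.44 ± 0.19, Stab2 at -0.21 ± 0.18 and Clec4g at -0.37 ± 0.22. Kupffer cell and macrophage markers were higher for 1 and lower for 4 of 11 genes (median -0.25), with Clec4f at -0.30 ± 0.16, Adgre1 at -0.25 ± 0.18 and Marco at 0.67 ± 0.65. Lymphocyte markers were higher for 1 and lower for 3 of 8 (median -0.02), with Cd3d at 0.94 ± 0.20 and Cd3e, another chain of the same receptor complex, at -0.49 ± 0.16.

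Stellate cell and fibroblast markers were higher for 2 and lower for 4 of 11 (median -0.14), with Lrat at -0.21 ± 0.25 and Col1a2 at -0.96 ± 0.17. Rgs5, a marker of pericytes in this list, had values near those of Tspan8: 1.39 ± 0.57 for STZ minus control, -0.81 ± 0.57 for STZ+MENS minus STZ and 0.58 ± 0.57 for STZ+MENS minus control. Lum was at 0.64 ± 0.28 for STZ minus control and -0.70 ± 0.28 for STZ+MENS minus STZ. Of the 3 measured erythroid markers 0 were higher and 2 lower in STZ (median -1.02), with Slc4a1 at -2.28 ± 0.72 and Alas2 at -1.02 ± 1.04. Hepatocyte markers were higher for 1 and lower for 2 of 9 (median -0.13, Alb 0.06 ± 0.13). In STZ+MENS, 3 of them were higher and 3 lower than in STZ (34.0% and 23.9% of all genes, median 0.01). Apob was at -2.12 ± 0.51 and Cps1 at -1.27 ± 0.48 in that comparison (limma adjusted p = 0.0825 and 0.17). The part of these other cells in the values of the members was not tested.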

How the data were processed

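The deposited values are linear probe intensities of single-colour arrays labelled with Cy5, already processed by the authors. How background and arrays were adjusted is not given in the sources used here. The submitters' processing notes list limma 3.30.7 with no role. Without the 1000 lowest values of each array, sorted intensities differed between arrays by at most 6.3% of their mean, the form that quantile normalization leaves, and no further scaling was applied.

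Intensities below 0 (44 to 52 per array) were raised to 0 before taking log2(intensity + 50), a scale that understates differences of dim genes. The platform annotation gave 1 symbol to 20377 of 26423 probes and named no gene for 6046 here. Older symbols (2126) were replaced through synonyms in a RefSeq table of GRCm38.p6, which served for names only. A gene was read from its brightest probe, and Epcam from both. Array pairs were averaged per sample, and limma 3.58.1 (lmFit and eBayes, R 4.3.3) fitted all 6 samples with 1 mean for each group, on 3 residual and 3.2 prior degrees of freedom. Two-sided p-values were adjusted by Benjamini-Hochberg over 17742 genes, at a threshold of 0.05. Exact permutation of 2 against 2 samples reaches no p below 0.33, so it was left out. The number of samples, 2 per group, limits the precision. The fit was tested on simulated data with known changes.

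All members were named. Of each other list, genes were named among the 3 with the smallest unadjusted p in any comparison, beside first markers of other cell types. The 5 genes most like Krt19 and most like the mean of the members were also named, skipping predicted genes, clones, pseudogenes and symbols all in capitals. Members and lists were chosen with earlier results of these data known. Top2b, Pnlip, Clec4g, Marco, Rgs5 and Lum were named after their values were seen. Alternatives were other offsets, probe rules, dim gene filters, samples, blocks, arrays and normalization, and leaving out each sample. Tables were made with pandas 2.3.3 and plots with matplotlib 3.10.9 in Python 3.11.15.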

Additional observations from a re-analysis of the deposited data

How the results depend on the processing

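The STZ minus control differences of Krt19, Tspan8 and Anxa13 kept their direction in all alternatives run. These members were named because they were the highest in STZ, and the alternatives reuse the samples on which the set was selected. Differences picked for their size could hardly change direction there, so the kept direction is a description only. With the dimmer Epcam probe, an alternative chosen after seeing the data, the median member difference for STZ minus control was 0.73. With the sample number as a replicate block the counts of genes called were 1, 0 and 1, as without it, and no call changed. The labels share only a number between groups, so the samples are not taken as paired.

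The count of genes called for STZ minus control (1) was 0 with an offset of 200 or the second arrays, 4 with the first arrays, 181 with only the groups compared and 1204 with all arrays and the sample as a random block. Leaving out 1 sample gave 0 to 181: leaving out control sample 1 or an STZ sample gave 0, leaving out control sample 2 gave 3, and leaving out an STZ+MENS sample gave 181. For STZ+MENS minus STZ (0) it was 30 with the second arrays, 3079 with the random block, and 0 to 1759 leaving out 1 sample, the highest without STZ+MENS sample 2. For STZ+MENS minus control (1) it was 0 with an offset of 200 or the second arrays, 2 with only the groups compared, 3 with the first arrays and 1336 with the random block. Leaving out control sample 1 gave 0, STZ+MENS sample 2 gave 12, and any other sample 2 or 3. Leaving out a sample of the group not compared leaves a single sample there, which adds nothing to the estimated spread. Such a fit equals the one with only the groups compared and is no separate alternative. The cause of the other changes was not tested.

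Some single members turned sign. Epcam in STZ+MENS minus STZ was 0.11 with the dimmer probe, and in STZ+MENS minus control 0.84 with it and 0.39 with the mean of all probes. Krt7 with the second arrays was -0.59 from STZ and -0.20 from control, and Sox9 was -0.01 for STZ minus control and 0.00 for STZ+MENS minus STZ. Leaving out 1 sample moved STZ+MENS minus STZ between -0.52 and -0.14 for Krt19, -1.20 and -0.56 for Tspan8 and -1.22 and -0.39 for Anxa13, with no change of sign. It moved Epcam between -0.05 and 0.19 and Sox9 between -0.29 and 0.36 for STZ minus control. For STZ+MENS minus STZ it moved Krt7 between -0.20 and 0.54, Sox9 between -0.41 and 0.03 and Spp1 between -0.55 and 0.21. For STZ+MENS minus control it moved Sox9 between -0.48 and 0.17, Spp1 between -0.20 and 0.57 and the members' median between 0.27 and 0.86. Tspan8 in STZ+MENS minus STZ passed the threshold with the random block at -0.88, in the fit that called 3079 genes. With the first arrays 3 members were apart for STZ minus control. When 1 sample was left out, 3 to 6 members were apart for STZ+MENS minus STZ, 6 without STZ sample 2 or STZ+MENS sample 2. A group left with 1 sample overlaps another group less easily, so a count of 6 cannot be compared with the 3 from all samples. The share of all genes apart in those settings was not counted, so nothing is read from the rise. The fit with an intensity trend was run for the counts of genes called.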

Other observations

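Some genes of other lists placed both STZ+MENS samples beyond the range of the other groups, and examples are given here. The share of all genes that do so was not counted, so nothing is read from them about the bile duct markers. Tff3, a trefoil peptide of mucous epithelia, stood at 12.19 and 12.20 on the log2 scale in control, 12.83 and 12.17 in STZ and 13.59 and 14.68 in STZ+MENS (1.63 ± 0.38 above STZ, limma adjusted p = 0.08). Tspan14, a tetraspanin that escorts the sheddase Adam10, read 12.71 and 12.83 in control, 12.66 and 12.43 in STZ and 11.80 and 11.79 in STZ+MENS (-0.75 ± 0.15 from STZ, limma adjusted p = 0.0668). Apob, the structural protein of very low density lipoprotein, read 17.31 and 17.26 in control, 17.43 and 16.85 in STZ and 14.21 and 15.84 in STZ+MENS (-2.12 ± 0.51 from STZ, limma adjusted p = 0.0825). None of the 3 passed the adjusted threshold.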
